A study of Sus scrofa with 4 samples.

Results

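The genes described here act on mTORC1, a kinase complex that sets protein synthesis and growth. They are DDIT4, DDIT4L, SESN1, SESN2, SESN3, TSC1, TSC2, DEPTOR, MTOR and MLST8, taken by gene symbol from the deposited tables, 10 of the 26921 genes and loci in each. RNA was sequenced from 2 libraries of cultured pig testis cells labelled ZBTB16 knockdown and 2 libraries of the same kind of cells labelled WT, called control below. The cells carry the label of immature spermatogonia, the germ cells from which sperm production starts. ZBTB16 is a BTB zinc finger transcription factor of undifferentiated spermatogonia. The series' plan was to lower it through lentiviral delivery of shRNA and then to look for genes tied to self-renewal. Whether the control cells received a vector is not stated in the labels, so effects of virus and knockdown cannot be told apart. The libraries held 18500447 and 16548342 expected counts (knockdown) and 17283536 and 15983390 (control).

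mTORC1 holds the kinase MTOR, the stabilising subunit MLST8 and the scaffold RPTOR, and it works at the lysosome. The TSC1 and TSC2 proteins switch off RHEB, the small GTPase that activates the kinase, and DDIT4 (also called REDD1) strengthens this brake under stress, low oxygen or glucocorticoid. Sestrins act on the amino acid branch: they bind the GATOR2 complex, and SESN2 is known as a leucine sensor. DEPTOR binds the kinase and inhibits it. In mouse spermatogonia, Zbtb16 is known to hold mTORC1 back through Ddit4.

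ZBTB16 itself was at 1.37 and 1.34 FPKM (fragments scaled to transcript length and to the library's total) in the knockdown libraries, against 1.77 and 1.76 FPKM in the control libraries. It fell to 0.779 times the control level by counts (log2 change -0.36, SE 0.109, edgeR adjusted p = 0.00338). This call was lost with DESeq2 (adjusted p = 0.113) and with limma on FPKM (0.0685 to 0.101). Of 12 germ cell and spermatogonia markers, 9 reached 1 FPKM in some library, but their summed level was low: 113.1 to 118.4 FPKM in the knockdown and 149.8 to 150.3 FPKM in the control, most of it UCHL1. The lower sum was that of UCHL1 and DND1: 7 of the 12 markers were higher in both knockdown libraries (among them DAZL at 3.36 and 3.33 FPKM in the knockdown, against 2.06 and 2.70 FPKM in the control) and 3 were lower, ZBTB16 included. DDX4, a defining germ cell marker, was at 1.86 to 2.01 FPKM in the knockdown and 1.96 to 2.3 FPKM in the control. The 10 Sertoli cell markers, all above 1 FPKM, summed to 2854 to 2882 FPKM in the knockdown and 2697 to 2726 FPKM in the control. CLU and CLDN11 made up most of that sum, and single markers moved apart, with 6 higher in the knockdown (GATA4 at 65.8 and 63.0 FPKM, against 38.1 and 40.1 FPKM in the control) and 2 lower (AMH at 7.20 and 7.38 FPKM, against 11.88 and 11.99 FPKM in the control, and DHH). Of 7 Leydig cell markers 4 were above 1 FPKM. The sum was 181.2 to 192.0 FPKM in the knockdown and 220.2 to 222.1 FPKM in the control, most of it CYP11A1. Of the 7 markers 4 were lower in both knockdown libraries and 1 was higher. The 8 markers of peritubular and stromal cells were all above 1 FPKM. They summed to 6003 to 6112 FPKM in the knockdown and 6202 to 6290 FPKM in the control. Here 3 were higher in both knockdown libraries, with ACTA2 at 3508.2 and 3439.7 FPKM, against 3209.4 and 3198.1 FPKM in the control. Another 3 were lower, with TAGLN at 1441.7 and 1418.1 FPKM, against 1918.5 and 1846.4 FPKM in the control. Of 7 macrophage and leukocyte markers 6 were above 1 FPKM. The sum was 24.2 to 26.8 FPKM in the knockdown and 34.6 to 38.8 FPKM in the control. Of the 7 markers 3 were lower in both knockdown libraries and 1, PTPRC, was higher. Endothelial markers (2 of 5 above 1 FPKM) summed to 9.61 to 10.7 FPKM in the knockdown and 10.8 to 12.4 FPKM in the control. Of the 5 endothelial markers 2 were lower in both knockdown libraries and 0 higher. The RNA thus held strong somatic marker signal beside weak germ cell signal, and markers of several cell types moved with the groups. Their part in the results below was not tested. In bulk RNA, fewer cells of a type and less RNA per cell cannot be told apart. The mean fragment was shorter in the knockdown libraries (266.4 and 267.4 bases) than in the control libraries (325.7 and 326.7 bases). This difference runs along with the groups, and the fits that bear on it are those with an effective length offset and those with length or GC trends removed.

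In the knockdown DDIT4 fell, and SESN2, SESN3, MTOR and MLST8 rose. The other 5 genes, DDIT4L, SESN1, TSC1, TSC2 and DEPTOR, did not pass the test. All 10 genes had enough counts to be tested, and the fit was run on all 15763 genes that passed the count filter. Of those genes 46.4% were called in either direction, 22.7% as higher and 23.8% as lower. A count of 4 rises, 1 fall and 5 genes without a call is therefore close to the background and is no result about the group. The median log2 change of the 10 genes was 0.06, against -0.001 for all tested genes. FPKM of the groups did not overlap for 7 of the 10 genes, 5 higher and 2 lower in the knockdown, against 70.4% of all tested genes, 29.0% higher and 41.4% lower. The furthest changes among the 10 were those of DDIT4 and MLST8.

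**Figure D1:**
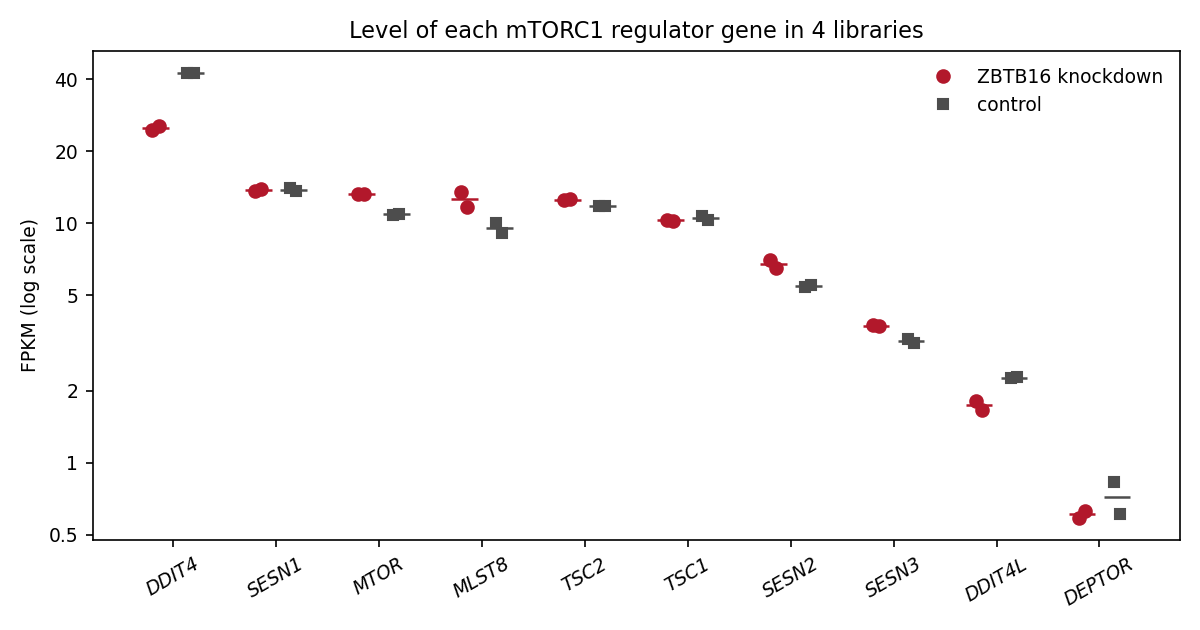
FPKM (log axis) of the 10 genes in each library, with ZBTB16 knockdown as red circles and control as grey squares, and a line at each group's mean. DDIT4 is the highest in every library and sits near 25 FPKM in the knockdown, against 42.4 FPKM in the control; SESN1, TSC1 and DEPTOR overlap between the groups.

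DDIT4, the stress-induced inhibitor that acts through the TSC brake (chromosome 14, 75117708 to 75119907, plus strand, Sscrofa 11.1), is annotated with a single transcript of 1791 bases in 3 exons, and no other annotated gene overlaps it. It was at 24.45 and 25.49 FPKM in the knockdown libraries, against 42.42 and 42.44 FPKM in the control libraries. Both knockdown libraries were lower than both control libraries, by far more than either pair differed. The values rest on 690 and 643 counts in the knockdown and 1075 and 994 counts in the control. DDIT4 fell to 0.619 times the control level (log2 change -0.69, SE 0.0538, edgeR adjusted p = 5.31e-25). A fall at least as deep was fitted for 687 of the tested genes (4.36%). It was the highest of the 10 genes in every library on the FPKM scale, and its level was above that of 81.9% of tested genes. Set against MTOR within each library, DDIT4 had 1.84 and 1.92 times the FPKM of the kinase in the knockdown. In the control it had 3.91 and 3.89 times. These ratios set 1791 bases against the 8736 bases of MTOR, with no length trend removed. With the length trend removed the log2 changes were -0.53 for DDIT4 and 0.15 for MTOR, against -0.69 and 0.31 by counts. Every alternative run kept the fall of DDIT4, with log2 changes from -0.76 to -0.50 and adjusted p from 7.04e-42 to 0.00236. The smallest size came with trends of transcript length and GC content removed from each library.

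The sequence around the annotated DDIT4 start is shown because DDIT4 had the deepest fall of the group. It runs from 250 bases before the start to the 50th base of the transcript (chr14:75117458-75117757, plus strand, Sscrofa 11.1, RefSeq annotation). Capitals mark the letters ACGTG, a form of the core that hypoxia-inducible factors are known to bind.
DDIT4: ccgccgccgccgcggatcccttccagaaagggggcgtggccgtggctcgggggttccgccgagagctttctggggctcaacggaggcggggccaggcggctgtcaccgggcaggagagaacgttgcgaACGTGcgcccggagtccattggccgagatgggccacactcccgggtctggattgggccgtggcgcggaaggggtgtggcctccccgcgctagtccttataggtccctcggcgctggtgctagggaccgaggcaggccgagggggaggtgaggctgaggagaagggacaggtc
The window is 70.7% G and C, against a median of 58.0% over the same window of 20625 genes. This form was found once in the DDIT4 window, at position -122, and 21.7% of the 20625 windows hold it on either strand. Other forms of the core were not searched for. The E-box CACGTG, which contains the letters ACGTG, is held by 7.6% of windows and was not found in DDIT4. The same was true of TGACG, the core bound by CREB and ATF factors (23.7% of windows). It was also true of TGATGNAA, a form of the element bound by ATF4 with C/EBP partners (3.0% of windows). Among the other 9 genes, SESN3 also had ACGTG (position -157), and SESN1 (-232), TSC1 (-147) and DEPTOR (-91) had TGACG. Each window was placed at the outermost annotated start of its gene, and other starts were not searched. For SESN2 that start is 85321982. The shortest SESN2 model, to which most of its transcripts were assigned, starts at 85324233, outside the window. The models of SESN1 also differ in their start. These matches describe letters only and do not show binding.

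DDIT4L, the paralogue of DDIT4 with the same action on mTORC1 (chromosome 8, 120371724 to 120376444), was at 1.82 and 1.66 FPKM in the knockdown, against 2.25 and 2.29 FPKM in the control. Both knockdown libraries were below both controls, but the gene was counted only 79 and 68 times in the knockdown and 90 and 85 times in the control. Its log2 change of -0.31 (SE 0.17) did not pass (edgeR adjusted p = 0.13), and 2 SE on either side reach from -0.65 to 0.03, so a fall of the size seen for DDIT4 lies just outside this range. Its lowest adjusted p was 0.0506, in the limma fit of log2(FPKM + 1). DDIT4 exceeded DDIT4L on the FPKM scale 13.4-fold and 15.4-fold in the knockdown, and more in both control libraries (18.9-fold in the first).

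Of the sestrins, which sense stress and amino acids upstream of the Rag GTPases, SESN2 rose. SESN2 (chromosome 6, 85321982 to 85348044) was at 7.04 and 6.52 FPKM in the knockdown, against 5.44 and 5.51 FPKM in the control, from 522 and 434 counts against 374 and 349. The groups did not overlap. Its level was 1.27 times that of the control (log2 change 0.35, SE 0.0749, edgeR adjusted p = 3.52e-05), and 11.9% of tested genes had a log2 change at least as large. The call was lost only with limma on log2(FPKM + 1) without a filter (adjusted p = 0.0606). Between 97.0% and 98.6% of its transcripts were assigned to the shortest of 3 annotated models in each library, as read from the deposited mean transcript length.

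SESN3 (chromosome 9, 27207239 to 27279205), a sestrin known as a FOXO target, rose less and less firmly. It was at 3.75 and 3.73 FPKM in the knockdown, against 3.29 and 3.16 FPKM in the control (log2 change 0.24, SE 0.0646, edgeR adjusted p = 0.00084). The groups did not overlap, although the call was lost under 6 of 15 alternatives. Its mean transcript is long (9723 to 9770 bases over the libraries), and with the length trend removed its log2 change was 0.07 (adjusted p = 0.413). With DESeq2 the adjusted p was 0.0602, and with limma on FPKM 0.0879 to 0.174. With length and GC trends removed it was 0.774.

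SESN1 (chromosome 1, 75056731 to 75170374), a sestrin known as a p53 target, was the highest sestrin and did not pass. It was at 13.61 and 13.94 FPKM in the knockdown and 14.05 and 13.60 FPKM in the control, and the groups overlapped. Its log2 change was 0.03 (SE 0.0597, edgeR adjusted p = 0.722), with 2 SE on either side reaching from -0.09 to 0.15. The sign changed with limma on FPKM, without the second knockdown library and with length and GC trends removed. SESN1 held 55.8% and 57.6% of the summed sestrin FPKM in the knockdown and 61.7% and 61.1% in the control, while SESN2 held 28.9% and 27.0% in the knockdown and 23.9% and 24.7% in the control. The sum over the 3 sestrins was 24.4 and 24.2 FPKM in the knockdown, against 22.8 and 22.3 FPKM in the control.

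TSC1 and TSC2, the core of the complex that inactivates RHEB, showed no change that passed. TSC1 (chromosome 1, 272636530 to 272685948), the subunit that stabilises the complex, was at 10.35 and 10.27 FPKM in the knockdown and 10.75 and 10.29 FPKM in the control. The groups overlapped (log2 change -0.01, SE 0.0419, edgeR adjusted p = 0.935, 2 SE from -0.09 to 0.08). TSC1 was lower only with the length trend removed (log2 change -0.17, adjusted p = 0.000415), and its sign was positive with the effective length as an offset, without the first control library and without the second knockdown library. TSC2 (chromosome 3, 39898924 to 39935579), the subunit that acts on RHEB, was at 12.47 and 12.67 FPKM in the knockdown, against 11.82 and 11.81 FPKM in the control. Its groups did not overlap, but a log2 change of 0.09 (SE 0.0464) did not pass (edgeR adjusted p = 0.1). TSC2 passed as higher with the effective length as an offset (log2 change 0.14, adjusted p = 0.0119), and its sign turned negative with the length trend removed (-0.03).

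MTOR, the kinase (chromosome 6, 71286989 to 71412913), has a single annotated transcript of 8736 bases, and ANGPTL7 lies within it on the other strand. It was at 13.27 and 13.29 FPKM in the knockdown, against 10.86 and 10.92 FPKM in the control, from 2080 and 1863 counts against 1579 and 1468. The libraries of each group lay close together and the groups were clearly apart. MTOR rose to 1.24 times the control level (log2 change 0.31, SE 0.0395, edgeR adjusted p = 2.98e-12). All 15 alternatives kept the call. Its size was 0.15 on the log2 scale (adjusted p = 0.000463) with the length trend removed, and 0.23 with length and GC trends removed.

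With the other tools the same pattern held in part. DESeq2 called 4 of the 10 genes (DDIT4 lower; SESN2, MTOR and MLST8 higher), against 28.2% of all tested genes, 13.8% higher and 14.4% lower. Limma on log2(FPKM + 1) called the same 4 in the same directions, against 45.3% of all genes it tested, 15.6% higher and 29.7% lower. With the length trend removed those 4 were called and TSC1 as lower, against 40.9% of all tested genes, 19.9% higher and 21.0% lower. With length and GC trends removed the 4 were called without TSC1, against 40.1%, 20.1% higher and 20.0% lower.

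**Figure D2:**
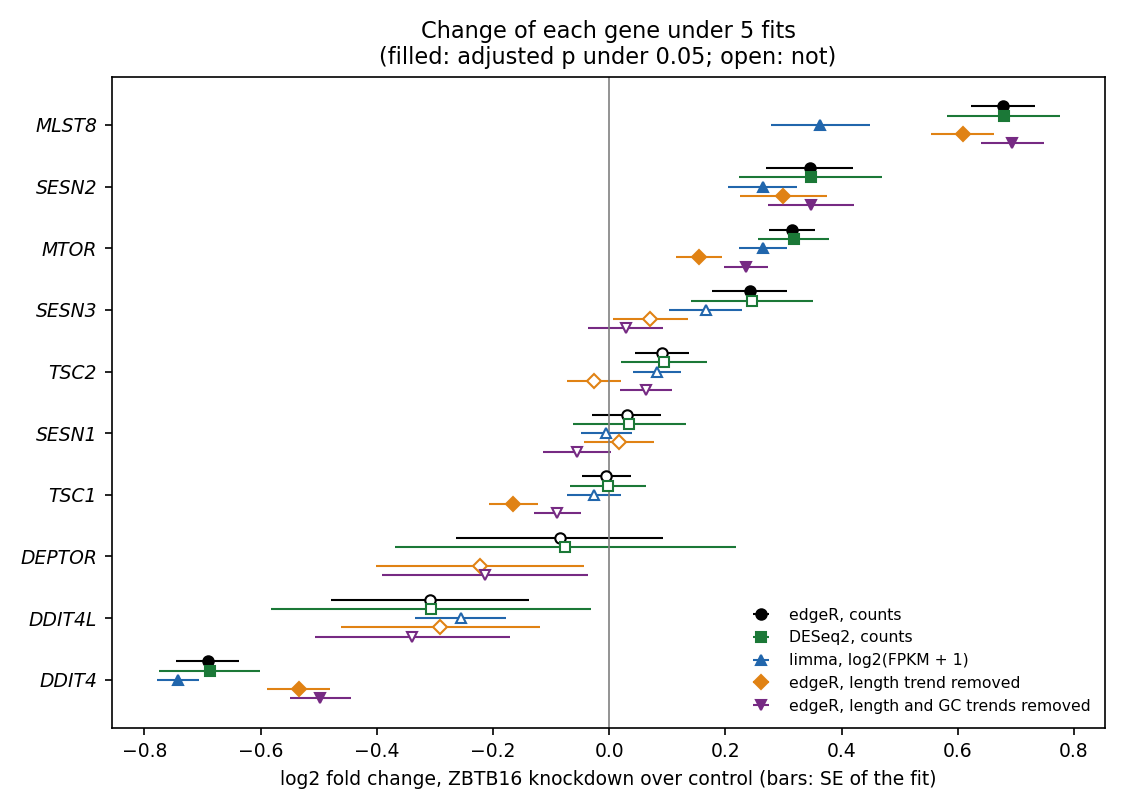
Log2 fold change of each gene, ZBTB16 knockdown over control, under 5 fits. Bars give the SE of the fit, for edgeR worked back from the F value, and filled symbols an adjusted p under 0.05. DDIT4 stays low and MLST8, SESN2 and MTOR stay high in all 5, SESN3 loses its call outside the edgeR fit of counts, and TSC1 is filled only with the length trend removed, where TSC2 turns negative; SESN1 is negative in 2 of the fits.

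MLST8, the subunit that stabilises the active site of the kinase, had the largest rise of the 10 genes by counts. It lies on the minus strand of chromosome 3 (39778746 to 39786206). It was at 13.54 and 11.70 FPKM in the knockdown, against 10.03 and 9.12 FPKM in the control, from 1231 and 944 counts against 709 and 597. The groups did not overlap, but the pair of knockdown libraries differed more than for the other genes that rose. By counts it rose 1.60-fold (log2 change 0.68, SE 0.0556, edgeR adjusted p = 3.19e-23), while the ratio of the mean FPKM was 1.32. With the effective length as an offset the log2 change was 0.45 and with limma on log2(FPKM + 1) 0.36 (adjusted p = 0.023, and 0.08 without a filter).

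The gap between counts and FPKM came with a change in the mean length of the MLST8 transcripts. The deposited length, which RSEM averages over a gene's models by their estimated abundance, was 5180 and 5144 bases in the knockdown, against 4413 and 4418 bases in the control. RefSeq gives MLST8 a model of 5357 bases and a pair of short models of 1736 and 1741 bases. They differ mainly in the last of 9 exons, which is 4199 bases long in the long model (39778746 to 39782944) and 587 bases in the short models (39782358 to 39782944). From the deposited lengths, the long model took 95.1% and 94.1% of MLST8 transcripts in the knockdown, against 73.9% and 74.0% in the control. The long model was at 12.9 and 11.0 FPKM in the knockdown, against 7.41 and 6.75 FPKM in the control. The short models together were at 0.663 and 0.690 FPKM in the knockdown, against 2.62 and 2.37 FPKM in the control, resting on about 18 and 17 counts against 64 and 53. The higher MLST8 level was thus in the estimate for the long model, and the short models were lower in both knockdown libraries. As 2 libraries against 2 allow no two-sided exact permutation p below 0.333, these model levels are given without a test.

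The extra stretch of the long model lies over other genes. This stretch (39778746 to 39782357) covers 1651 bases of BRICD5, all but the last 121, which lie in the part of the exon that all models share. It also covers 924 bases at the end of PGP, a phosphatase gene. Both genes are on the opposite strand. The sources used here do not state whether strand entered the counting, so reads there may come from either strand. PGP was at 13.77 and 13.67 FPKM in the knockdown, against 17.30 and 16.28 FPKM in the control. It fell (log2 change -0.24, SE 0.0609, edgeR adjusted p = 0.000421), opposite to MLST8. If strand was not used, the PGP and MLST8 estimates are not independent over the 924 bases, and this was not tested. BRICD5 was counted 7 and 5 times in the knockdown and 7 and 4 times in the control, too few to be tested. Among 10596 tested genes with at least 500 counts in all, 54 (0.51%) had a mean length that was longer by at least the same ratio (1.17) in both knockdown libraries, and 86 were shorter by as much. The part of the shorter knockdown fragments in this split was not tested.

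**Figure D3:**
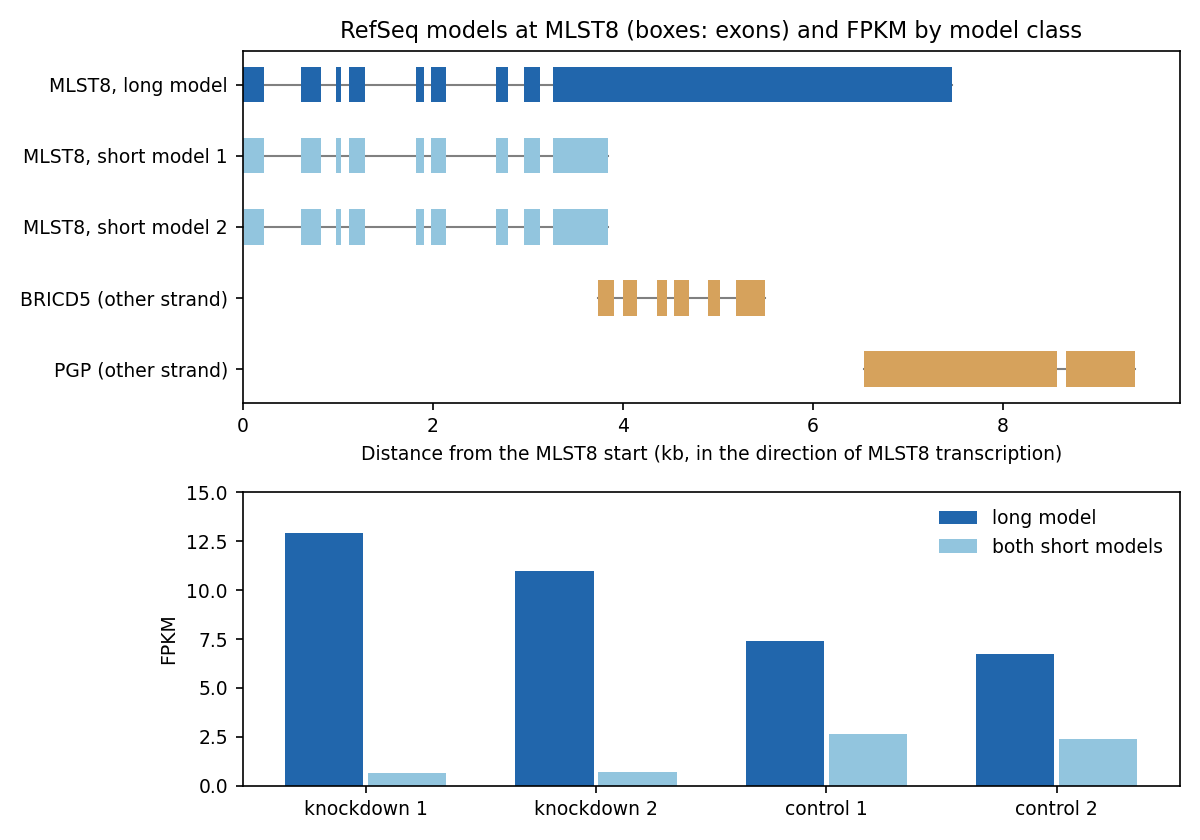
Upper panel: exons (boxes) of the 3 MLST8 models and of BRICD5 and PGP on the other strand, by distance in kb from the MLST8 start. Lower panel: FPKM of the long model and of both short models together in each library, derived from the deposited mean lengths; the long model is higher in the knockdown (12.9 and 11.0, against 7.41 and 6.75 in the control) and the short models are lower.

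The other genes with several models showed less. For TSC2, with 14 models, the mean length was 5830 to 5874 bases in the knockdown and 5978 to 5982 bases in the control. For DDIT4L the longer of 2 models took 21.0% of transcripts in the first knockdown library, all of them in the second, and 41.6% and 46.3% in the control libraries. The knockdown libraries thus lay on both sides of the controls, at 68 to 90 counts a library. DEPTOR, the inhibitor bound to the kinase (chromosome 4, 18969509 to 19180131), was counted least often. SESN1, TSC2 and DEPTOR share part of their span with ARMC2, PKD1 and DSCC1 on the other strand. SESN1 also shares 19734 bases with LOC106508918 on its own strand. These spans include introns, and shared exons were not examined for these genes. Whether their values hold reads of the overlapping genes was therefore not tested. DEPTOR was at 0.59 and 0.63 FPKM in the knockdown and 0.83 and 0.61 FPKM in the control, from 68 and 77 counts against 81 and 67. The groups overlapped, and the log2 change of -0.09 (SE 0.179, edgeR adjusted p = 0.736) had 2 SE on either side from -0.44 to 0.27. At this depth a change of DEPTOR within that range cannot be told from none.

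On the FPKM scale, which allows levels of different genes to be set side by side, the order in the knockdown was DDIT4, SESN1, MTOR, MLST8, TSC2, TSC1, SESN2, SESN3, DDIT4L and DEPTOR. MTOR, MLST8 and TSC2 overlapped between neighbours in the knockdown, at means of 13.28, 12.62 and 12.57 FPKM. In the control the order was DDIT4, SESN1, TSC2, MTOR, TSC1, MLST8, SESN2, SESN3, DDIT4L and DEPTOR, with no overlap between neighbours. The genes at both ends kept their places. MTOR was above TSC2 in both knockdown libraries and below it in both control libraries, while MLST8 (13.54 and 11.70 FPKM) lay on both sides of TSC2 in the knockdown.

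Among 6567 other named genes with a mean of at least 10 FPKM, the 5 whose values in the 4 libraries lay closest to those of DDIT4 on the log2 CPM scale (CPM, counts scaled to library size, each gene centred on its own mean) included PSMB9, ARPC4 and ATP5L. The log2 changes of these 3 lay between -0.70 and -0.67, against -0.69 for DDIT4. This nearness follows from the choice, which used the same values. The likeness is over 4 libraries only, and with length and GC trends removed PSMB9 was at -0.30, against -0.50 for DDIT4.

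Genes around the 10 were grouped by role, and without ZBTB16, which is in the glucocorticoid list, 119 of 120 could be tested. Of these 37 rose, 39 fell and 43 did not pass (63.9% called, against 46.4% of all tested genes), with a median log2 change of 0.0. All tested genes were not matched to the lists for expression level, and the difference in shares was not tested. The counts of each list below stand against 22.7% of all tested genes called higher and 23.8% lower, and fold changes are by counts unless said otherwise. List counts and medians are those of the edgeR fit of counts, with no length or GC trend removed. Within mTOR complexes and RHEB, 2 of 11 rose and 2 fell. RHEBL1, a relative of RHEB, fell to 0.478 times control at 19 and 33 counts in the knockdown, against 51 and 54 in the control (edgeR adjusted p = 0.000187, but 0.0699 without the first knockdown library). TELO2, which helps assemble the kinase, fell (log2 change -0.26, lost with DESeq2 at 0.0709 and without the first control library at 0.108), and the mTORC2 subunit RICTOR rose by counts (0.19) but was at -0.05 with length and GC trends removed. In the amino acid branch, in which sestrins work, 6 of 21 rose and 5 fell. FLCN, which with its partners acts on RRAGC and RRAGD, fell to 0.732 times control by counts (log2 change -0.45, edgeR adjusted p = 1.89e-17). On the FPKM scale it was at 18.7 ± 0.926 FPKM in the knockdown, against 23.1 ± 0.219 FPKM in the control (SD, n = 2 each), a ratio of 0.809. The log2 change of FLCN was -0.25 with an effective length offset and -0.29 with limma on log2(FPKM + 1), both still called. Its partner FNIP2 rose 1.24-fold, with a log2 change of 0.31 that was 0.17 with the length trend removed. SEC13 fell by 0.19 on the log2 scale but was at -0.02 (adjusted p = 0.75) with the length trend removed.

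Among genes of PI3K and AKT, which signal to TSC2, 7 of 11 rose and 2 fell (median log2 change 0.14), against 22.7% and 23.8% of all tested genes. IRS2, an adaptor of the insulin receptor, rose 1.32-fold (edgeR adjusted p = 1.69e-08). Its log2 change was 0.4, against 0.27 with the length trend removed and 0.35 with length and GC trends removed. PIK3R1 and PIK3R2, regulatory subunits of the kinase, rose by 0.33 and 0.32 on the log2 scale, and PIK3R2 lost its call only with limma without a filter (adjusted p = 0.0731). PIK3R1 kept its call with length and GC trends removed, at a log2 change of 0.16. Of 9 genes of LKB1 and AMPK, the energy sensor that also acts on TSC2, 2 rose and 1 fell. STK11 (LKB1) fell by 0.15 on the log2 scale, PRKAA1 rose by 0.15 and PRKAA2 by 0.21, and all 3 lost their calls with DESeq2 (adjusted p 0.0587, 0.182 and 0.237); PRKAA1 was at -0.01 with limma on FPKM. Of 16 mTORC1 substrates and effectors 5 rose and 6 fell. EIF4EBP2, a repressor of cap-dependent translation, rose 1.23-fold and ULK1, the kinase that starts autophagy, 1.22-fold. The log2 change of EIF4EBP2 was 0.30, and 0.15 with length and GC trends removed. RPS6, the ribosomal protein at the end of the S6 kinase branch, fell to 0.825 times control by counts, but was at 0.03 (adjusted p = 0.176) with length and GC trends removed.

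**Figure D4:**
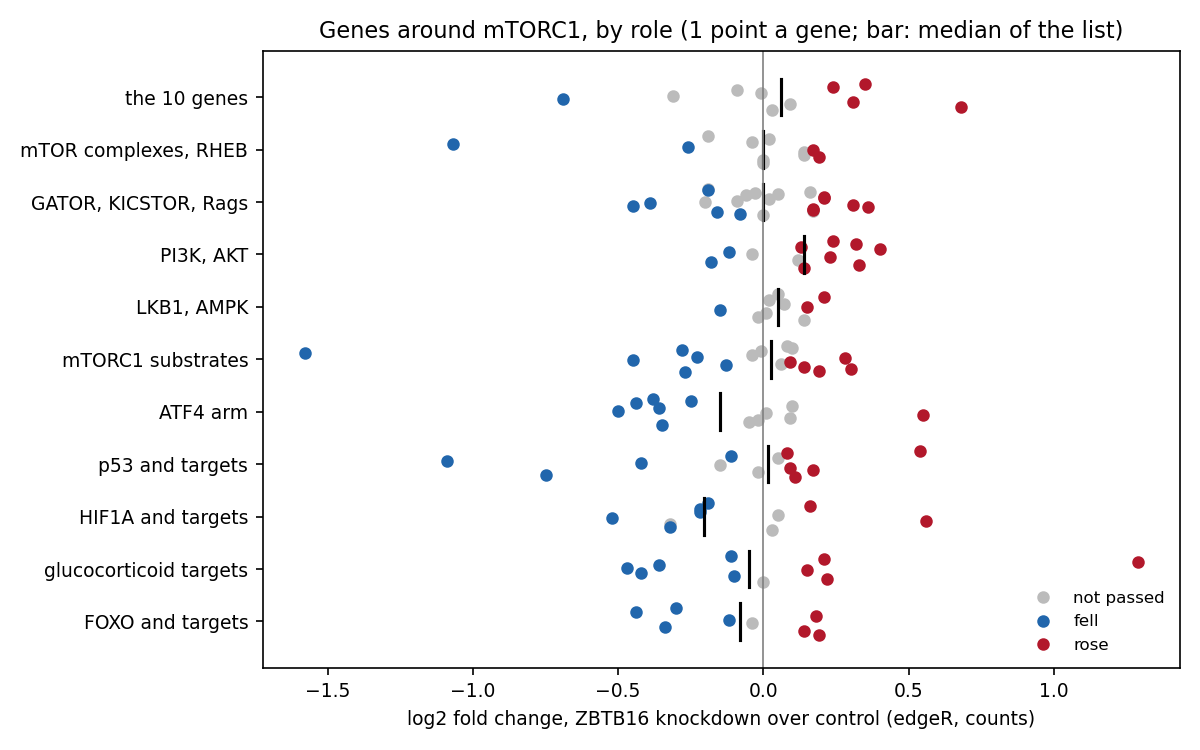
Log2 fold change (edgeR, counts) of the 10 genes and of the tested genes of each role list, ZBTB16 knockdown over control, coloured by call, with a black bar at each list's median. Rises and falls stand side by side in every list; the medians run from -0.21 for HIF targets to 0.14 for PI3K and AKT.

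Genes of the inputs known to induce DDIT4 or the sestrins also moved both ways. In the ATF4 arm of the stress response, known to act on DDIT4 and SESN2, 6 of 12 fell and 1 rose (median log2 change -0.15), against 23.8% of all tested genes called lower and 22.7% higher, the shares that hold for the next lists too. PPP1R15A fell to 0.777 and PSAT1 to 0.787 times control, CEBPB rose 1.47-fold, and ATF4 itself was at 455.3 and 451.8 FPKM in the knockdown, against 495.1 and 504.4 FPKM in the control (edgeR adjusted p = 0.0522). Of 12 genes of p53 and its targets 5 rose and 4 fell: BAX fell to 0.471 times and GADD45A to 0.747 times control, and FAS rose 1.45-fold. Of 10 genes of HIF, which is known to induce DDIT4 at low oxygen, 2 rose and 5 fell. HIF1A, the oxygen-regulated factor itself, rose 1.47-fold (284.4 ± 2.33 FPKM in the knockdown, against 199.9 ± 1.37 FPKM in the control, SD, n = 2 each, edgeR adjusted p = 1.41e-59), while its targets BNIP3 and NDRG1 fell to 0.799 and 0.857 times control; BNIP3 was at -0.08 (adjusted p = 0.12) with length and GC trends removed. Of 10 glucocorticoid targets and their receptor 4 rose and 5 fell, the targeted gene ZBTB16 among the falls. CEBPD fell to 0.723 and TSC22D3 to 0.748 times control, and SGK1 rose 1.16-fold. Of 8 genes of FOXO factors and targets 3 rose and 4 fell; FOXO4 fell to 0.739 and TXNIP to 0.810 times control, FOXO1 rose 1.14-fold, and with the length trend removed FOXO1 and TXNIP lost their calls (adjusted p = 0.0784 and 0.0539). With length and GC trends removed several falls were called but smaller on the log2 scale: BAX was at -0.64 in place of -1.09, CEBPD at -0.24 in place of -0.47, PPP1R15A at -0.23 in place of -0.36 and TXNIP at -0.19 in place of -0.30. With the length trend alone removed, GADD45A was at -0.25 in place of -0.42 and BNIP3 at -0.15 in place of -0.32.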

How the data were processed

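RNA from 2 ZBTB16 knockdown and 2 control libraries was measured by mRNA sequencing. Per the labels' protocols, SOAPnuke 2.1.0 cleaned the reads, HISAT2 2.2.1 placed them on Sscrofa 11.1, bowtie2 2.3.5 mapped them to transcripts and RSEM 1.3.3 counted them. The authors deposited expected counts, which need not be whole, FPKM, and TPM, which was not used, and for each gene a mean transcript length and an effective length in bases. Expected counts were rounded and tested with edgeR 4.0.16 (R 4.3.3): TMM scaling, filterByExpr (minimum count 10, minimum total 15), two-sided quasi-likelihood test, Benjamini-Hochberg over all genes, called under 0.05. The SE of an edgeR fit was worked back from its test, as the absolute log2 change divided by the square root of the F value. FPKM was tested as log2(FPKM + 1) with limma 3.58.1, for genes at 1 FPKM or more in at least 2 libraries, as an alternative; fold changes on that scale understate those of low genes. Other alternatives were DESeq2 1.42.0, RLE and upper-quartile scaling, all genes without a count filter, a pseudocount of 0.1, an effective length offset, smooth trends of length and GC content removed per library (mgcv 1.9.3; GC known for 97% of tested genes), the replicate number as a block and leaving out each library. The common biological coefficient of variation was 0.0129, so p-values measure the small spread between these libraries, which may be technical although the labels name independent experiments. Shares of transcript models were solved from the deposited length and the RefSeq model lengths, taking the short or long models of a gene together, for genes whose listed transcripts are all in RefSeq. Positions and promoter sequence are from the RefSeq annotation of Sscrofa 11.1. From each role list up to 3 genes with the smallest p and a mean of at least 1 FPKM in either group were named; KICS2 and SAMTOR were found under older symbols, and ATF4 was named after its values were seen. Some genes that these rules cover are not reported here. The genes and lists were chosen with earlier results of these data known.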

Additional observations from a re-analysis of the deposited data

How the results depend on the processing

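Of the 10 genes, DDIT4 and MTOR kept direction and call under all 15 alternatives, and DDIT4L, SESN1 and DEPTOR passed under none. For all genes the count of calls was 7319, against 4441 with DESeq2 and 4438 with limma on log2(FPKM + 1) without a filter; without 1 library it was 6040 to 6265. With limma on log2(FPKM + 1) 34.4% of calls were higher, against 48.8% by counts. Calls lost, with log2 changes: ZBTB16 -0.36 (DESeq2, and log2(FPKM + 0.1)) and -0.23 (log2(FPKM + 1), with and without the filter); SESN2 0.26 and MLST8 0.36 (log2(FPKM + 1) without a filter); SESN3 0.25 (DESeq2), 0.17 (log2(FPKM + 1), with and without the filter), 0.21 (log2(FPKM + 0.1)), 0.07 (length trend removed) and 0.03 (length and GC trends removed). Calls gained were TSC1 -0.17 (length trend removed) and TSC2 0.14 (effective length offset). Signs turned for SESN1 at -0.0048 (log2(FPKM + 1), both filters), -0.01 (log2(FPKM + 0.1)) and -0.06 (length and GC trends removed), TSC1 at 0.02 (effective length offset) and TSC2 at -0.03 (length trend removed). Leaving out each library in turn gave -0.00033 to 0.06 for SESN1, -0.04 to 0.02 for TSC1 and -0.26 to 0.08 for DEPTOR. Among the other 33 named genes, 44 of 495 values lost their call and 5 turned sign: RICTOR -0.05 and RPS6 0.03 (length and GC trends removed), and PRKAA1 -0.01 in each limma fit. The cause of these changes was not tested. DEPTOR had no value with limma on filtered FPKM. No shared deviation of same-numbered libraries was seen (correlation 0.00036 over 15763 genes), which does not settle whether they were paired by design. With the replicate number as a block 7480 genes were called, and no call of the 10 genes changed. Depth limits DDIT4L and DEPTOR, at 67 to 90 counts a library.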
